A study of Mus musculus with 36 samples.

Results

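The 8 genes that encode troponin in mouse striated muscle were followed across 36 RNA sequencing libraries of heart tissue and heart muscle cells. They were taken by symbol from a table of 36128 gene rows, and each of the 8 had exactly 1 row. Troponin sits on the thin filament of the sarcomere as a complex of 3 subunits: troponin C binds calcium, troponin I holds back actin and myosin until calcium arrives, and troponin T anchors the complex to tropomyosin. Each subunit is made in muscle-type isoforms from separate genes. In the heart the slow skeletal troponin I is known as the fetal form and gives way to cardiac troponin I, whereas cardiac troponin T and cardiac troponin C are used from early on.

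The libraries came from CD-1 mice and fell into 16 groups. Whole ventricular myocardium was sampled at postnatal day (P) 0, P4, P7 and adult age, and 1 and 7 days after a sham operation or a resection, with 2 libraries in each of these 8 groups. Isolated cardiomyocytes, which the labels describe as prepared with Miltenyi columns, were sampled at P0, P4, and 7 days after sham operation or resection, with 3 libraries per group. Dissociated adult cardiomyocytes, here called explants, were sampled at 0, 24, 48 and 72 h, with 2 libraries per time. The labels give neither the age at operation nor the number of animals behind a library. Nor do they state that replicate libraries are different animals, and every p-value here reflects the spread between these libraries alone.

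All values below are FPKM, fragments scaled to transcript length and library total, which puts different genes on a common length scale. Whether library preparation shifts the levels of genes against each other was not tested. Sequencing depth is unknown. Differences were fitted with limma on log2(FPKM + 1) over all rows that reached 1 FPKM in at least 2 libraries of the fit, and a result is called when its Benjamini-Hochberg adjusted p over those rows is below 0.05. Each ± after such a difference is its standard error. Between 10454 and 13134 rows per library were at or above 1 FPKM. The FPKM of a library summed to between 422576 and 684130. A 0 in this table need not mean absence: Myh6, the adult mouse heart myosin, was listed at 0 in replicate 2 of the 0 h explants and at 4762 in replicate 1. The 8 libraries of operated ventricle stood apart from the 8 of unoperated ventricle in the ratios between troponin subunits, and the labels name a pair of library preparation methods without assigning them, so no test below compares these sets; the order of groups and the likeness ranking near the end do span them. Isolated day 7 resection libraries carried lung epithelium markers (Sftpc, Sftpb, Sftpa1 and Scgb1a1) summing to 171 to 1116 FPKM, against 0.435 to 2.57 in the day 7 sham libraries. Erythroid markers reached 40372 FPKM in the day 7 resection group and 12043 in P0 isolated cells. In these bulk samples, fewer cells of a type and less RNA per cell cannot be told apart.

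Promoter sequences of the 4 abundant members are shown first because Tnni1 and Tnni3 moved in opposite directions with age. They are from RefSeq on GRCm38.p6, in which 6 of the 8 genes had an entry. Each sequence runs 5′ to 3′ on the gene's strand from 250 bases before the annotated start to 30 bases after it. The places are chr1:135799171-135799450 (plus strand) for Tnni1, chr7:4522499-4522778 (minus strand) for Tnni3, chr1:135836084-135836363 (plus strand) for Tnnt2 and chr14:31208062-31208341 (plus strand) for Tnnc1. Tnni1 and Tnnt2 each have a second entry that is not shown. Capitals mark motif matches on either strand. The GATA factor motif was searched as GATAA. The MCAT motif, which TEAD factors bind, was searched as CATTCC. The E-box was searched as CANNTG.
Tnni1: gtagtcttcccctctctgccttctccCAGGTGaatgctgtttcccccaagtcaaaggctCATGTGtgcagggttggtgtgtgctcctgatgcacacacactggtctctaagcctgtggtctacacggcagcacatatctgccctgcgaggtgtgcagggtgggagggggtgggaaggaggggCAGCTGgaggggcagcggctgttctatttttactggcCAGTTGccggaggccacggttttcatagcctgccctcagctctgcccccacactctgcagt
Tnni3: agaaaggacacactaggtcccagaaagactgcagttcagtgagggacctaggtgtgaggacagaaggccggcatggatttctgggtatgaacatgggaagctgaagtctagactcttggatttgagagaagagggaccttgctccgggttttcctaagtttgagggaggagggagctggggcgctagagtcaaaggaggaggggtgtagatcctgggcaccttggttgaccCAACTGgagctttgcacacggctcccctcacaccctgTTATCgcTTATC
Tnnt2: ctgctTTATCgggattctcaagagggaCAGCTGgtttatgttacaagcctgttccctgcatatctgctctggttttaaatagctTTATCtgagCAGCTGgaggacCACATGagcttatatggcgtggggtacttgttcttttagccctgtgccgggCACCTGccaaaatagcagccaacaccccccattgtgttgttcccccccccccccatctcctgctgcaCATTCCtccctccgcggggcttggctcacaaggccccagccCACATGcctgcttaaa
Tnnc1: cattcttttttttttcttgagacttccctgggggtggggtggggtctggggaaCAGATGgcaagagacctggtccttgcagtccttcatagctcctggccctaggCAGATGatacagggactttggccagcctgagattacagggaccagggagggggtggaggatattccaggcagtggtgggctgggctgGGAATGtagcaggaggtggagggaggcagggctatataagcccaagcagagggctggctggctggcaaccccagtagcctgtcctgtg
Over the full window of 300 bases, which ends 50 bases after the start, the Tnni1 promoter held 4 E-boxes and no GATAA or CATTCC. The Tnni3 promoter held 2 GATAA matches, both just after the start, and 1 E-box. The Tnnt2 promoter held 2 GATAA matches, 1 CATTCC and 5 E-boxes, and the Tnnc1 promoter 1 CATTCC and 2 E-boxes. These counts are for the entries shown. The second entries of Tnni1 and Tnnt2 each held 2 E-boxes and no GATAA or CATTCC. Among all 32851 promoters of this length, 25.4% held GATAA, 14.7% CATTCC and 72.3% an E-box. Neither the MEF2 nor the CArG motif, found in 3.19% and 1.63% of promoters, was matched in any of the 8 windows these 6 genes have. The exact string TATAAA, present in 13.6% of promoters, was matched among the troponin windows at Tnnt1 alone. Other TATA-like stretches, such as tatataa in the Tnnc1 sequence, were not searched. No matches overlapped in the sequences shown, and they describe letters and not binding.

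On the mm9 coordinates of the deposited table, the troponin I and T genes lie in pairs. Tnni1 (ENSMUSG00000026418, chr1:137679641-137707566) and Tnnt2 (ENSMUSG00000026414, chr1:137737451-137748837) are 29.9 kb apart with 1 other row between them. Tnnt1 (ENSMUSG00000064179, chr7:4456171-4467984) ends 1921 bases from Tnni3 (ENSMUSG00000035458, chr7:4469906-4475831), with none between. Tnni2 (ENSMUSG00000031097, chr7:149627712-149630315) and Tnnt3 (ENSMUSG00000061723, chr7:149684740-149701914) are 54.4 kb apart. The troponin C genes stand alone, Tnnc1 (ENSMUSG00000021909) at chr14:32021497-32024909 and Tnnc2 (ENSMUSG00000017300) at chr2:164602660-164605467. Tnni3, Tnnt3 and Tnnc2 overlap the rows 6030429G01Rik, Gm14492 and Ube2c. The strand setting of the authors' counting is not given in the sources used here, so the low values of Tnnt3 and Tnnc2 are uncertain. Over the 16 group means of log2(FPKM + 1), Pearson's r between the members of a pair was -0.07 for Tnni1 with Tnnt2, 0.24 for Tnni3 with Tnnt1 and 0.69 for Tnni2 with Tnnt3, as descriptions over groups that share preparations.

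The bulk of troponin transcript came from 4 genes: cardiac troponin T (Tnnt2), cardiac troponin I (Tnni3), cardiac troponin C (Tnnc1) and, in neonatal samples, slow skeletal troponin I (Tnni1). Tnnt2 ranged from 806 to 5983 FPKM over the 36 libraries (median 3302), Tnni3 from 286 to 3790 (median 1551) and Tnnc1 from 223 to 4163 (median 1633). Tnni1 had the widest span, from listed at 0 in 5 libraries to 1282 FPKM. Slow skeletal troponin T (Tnnt1) lay between 5.06 and 57.5 FPKM. The fast skeletal genes were low everywhere, with a highest value of 4.35 FPKM for Tnni2, 2.43 for Tnnt3 and 1.96 for Tnnc2.

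**Figure D1:**
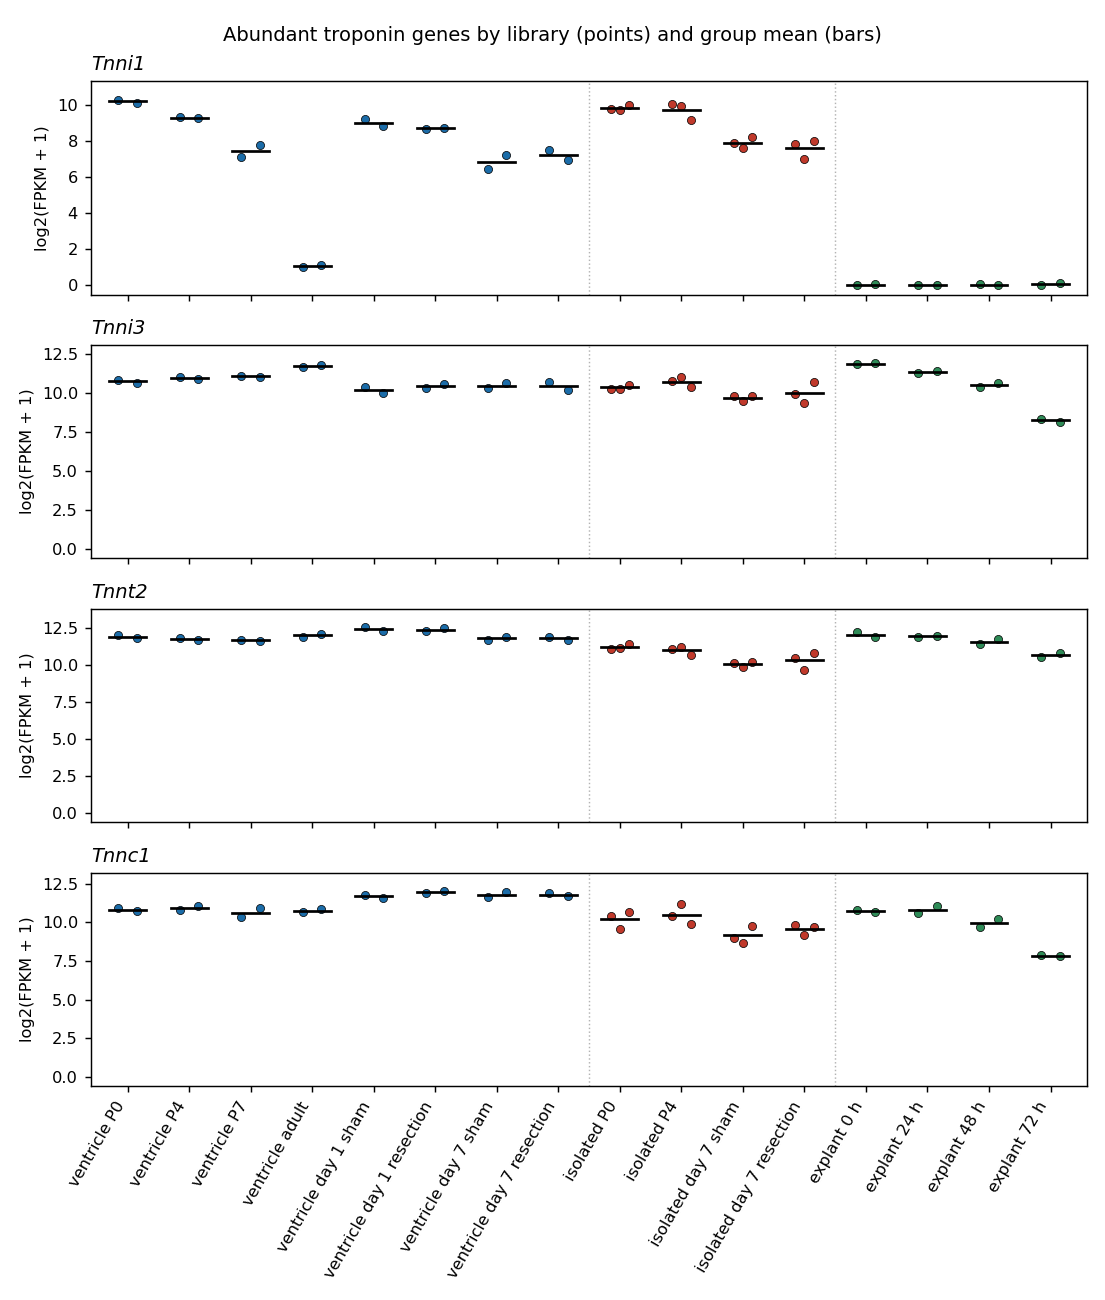
Levels of Tnni1, Tnni3, Tnnt2 and Tnnc1 as log2(FPKM + 1) on the vertical axis for the 16 groups on the horizontal axis; each point is a library, each bar the group mean, and dotted lines part ventricle, isolated cells and explants. Tnni1 spans from listed at 0 in 5 explant libraries to 1282 FPKM in ventricle at P0, and the other genes stay above 223 FPKM in every library.

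Tnni1 was highest in ventricle at P0, at 1282 and 1117 FPKM. It stood at 660.3 and 619 at P4, at 138 and 226 at P7, and at 1.04 and 1.201 in the adult. The ranges of these 4 ages did not overlap. Between P0 and P4 the log2 difference on the log2(FPKM + 1) scale was -0.90 ± 0.27 (SE), which did not pass the threshold (limma, Benjamini-Hochberg adjusted p = 0.15 over 14306 rows). From P4 to P7 Tnni1 fell by 1.85 ± 0.27 (adjusted p = 0.00794). From P7 to the adult it fell by 6.39 ± 0.27 (adjusted p = 2.01e-08). The log2 difference over the whole span from P0 to the adult was -9.14 ± 0.27 (adjusted p = 5.29e-10). The P4 to P7 call rested on few libraries: its adjusted p was 0.0943 without P7 replicate 1, 0.0509 without P4 replicate 1 and 0.0824 without P4 replicate 2.

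Cardiac troponin I, the adult form, moved the other way. Tnni3 was at 1832 and 1604 FPKM at P0, 2046 and 1868 at P4, 2180.5 and 2122 at P7, and 3223 and 3525 in the adult. The ranges of these ages did not overlap, and both adult libraries lay well above the 6 neonatal ones. Tnni3 was higher in the adult than at P0 by 0.98 ± 0.20 on the log2 scale (adjusted p = 0.00105). Its difference between adult and P7, 0.65 ± 0.20 (adjusted p = 0.019), was lost when any of the 4 libraries of the comparison was left out (adjusted p 0.0521 to 0.11). Its changes from P0 to P4 (0.19 ± 0.20, adjusted p = 0.775) and from P4 to P7 (0.14 ± 0.20, adjusted p = 0.844) did not pass.

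The share of Tnni1 in all troponin I transcript, which does not depend on library scaling, gave the same order of ages. It was 41.1 and 41.0% in the P0 ventricle libraries, 24.4 and 24.9% at P4, 5.97 and 9.61% at P7, and 0.0323 and 0.0341% in the adult. No ranges overlapped between ages. The log2 ratio of Tnni3 to Tnni1 was 0.52 ± 0.01 (SD, n = 2) at P0, 1.61 ± 0.03 at P4, 3.60 ± 0.52 at P7 and 10.6 ± 0.01 in the adult. The ratio was tested in 11 comparisons with exact two-sided permutation tests. With 2 libraries against 2 the exact test cannot go below p = 0.333, and with 3 against 3 not below 0.1, so none could pass. Each test gave the smallest p its size allows and an adjusted p of 0.333.

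**Figure D2:**
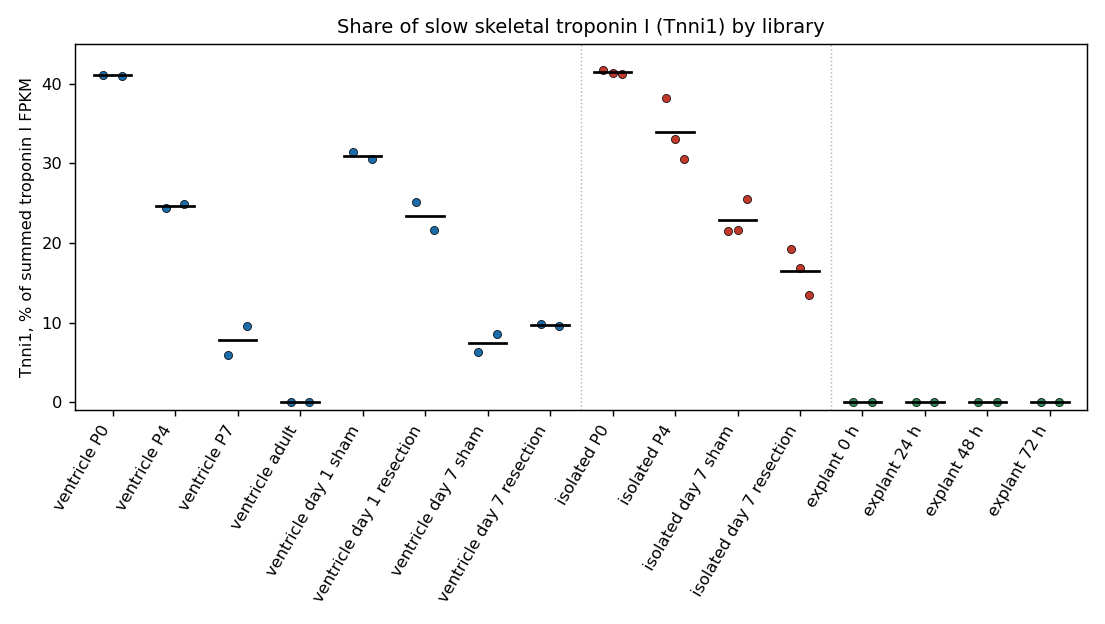
Share of Tnni1 in the summed FPKM of Tnni1, Tnni2 and Tnni3, in percent on the vertical axis, by group on the horizontal axis; points are libraries and bars group means. The mean share is 41.1% in ventricle at P0 and 0.0332% in the adult, 41.4% in isolated cells at P0, and at most 0.0255% in any explant library.

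Cardiac troponin T and cardiac troponin C had no called difference between any of these ages on the deposited scale. Tnnt2 was at 4206 and 3553 FPKM at P0, 3601 and 3294 at P4, 3302 and 3210.1 at P7, and 3796 and 4414 in the adult. The P0 and adult ranges overlapped, and the log2 difference of 0.08 ± 0.18 had a 95% interval of -0.30 to 0.46 (adjusted p = 0.709). That interval holds for the deposited scaling: under median-of-ratios scaling, which sets each library by its typical row, the difference was 0.55 (adjusted p = 0.0148), and under quantile normalization, which gives all libraries 1 distribution, it turned to -0.76 (adjusted p = 0.0282). Tnnc1 was at 1915 and 1674 FPKM at P0 and 1618 and 1868 in the adult, a log2 difference of -0.04 ± 0.21 (95% interval -0.49 to 0.41, adjusted p = 0.876). Under quantile normalization it was -0.50 (adjusted p = 0.0355). Tnnt2 made up 98.6 to 99.7% of troponin T transcript in these 8 libraries, and Tnnc1 at least 99.99% of troponin C.

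Slow skeletal troponin T, the partner isoform of Tnni1 in slow muscle, fell with age. Tnnt1 was at 57.5 and 37.1 FPKM at P0, 28.2 and 25.8 at P4, 20.9 and 19.2 at P7, and 12.6 and 14.1 in the adult, with no overlap between ages. Its log2 difference from P0 was -1.16 ± 0.22 at P7 (adjusted p = 0.0045; 0.0544 without P0 replicate 1) and -1.72 ± 0.22 in the adult (adjusted p = 3.08e-05). Fast skeletal troponin I, Tnni2, was at 4.27 and 2.33 FPKM at P0 and 0.492 and 1.41 in the adult, without overlap. It fell by 1.14 ± 0.28 (adjusted p = 0.00414), a call lost without adult replicate 1 (0.0575) or P0 replicate 1 (0.0572). P0 replicate 1 was the higher P0 library for both Tnnt1 and Tnni2. Its atrial markers (Myl7, Myl4, Sln, Nppa and Bmp10) summed to 1262 FPKM, against 359 in P0 replicate 2. The part of these markers in the Tnnt1 and Tnni2 falls was not tested. Tnnt3 and Tnnc2 stayed under 1 FPKM in all 8 unoperated ventricle libraries.

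Counted over all 8 members, which were all tested in ventricle, the calls were few before P7 and more between the ends of the age range. The counts and the median of the members below include Tnnt3 and Tnnc2. Both were under 1 FPKM at every age here and passed the filter only through operated ventricle libraries. None of the 8 members was called from P0 to P4 by limma, where 1.35% of all rows were called. There 2 members (Tnni1, Tnnt1) had an unadjusted p under 0.05. From P4 to P7 1 member was called (1.6% of all rows), and from P0 to P7 2 were (12.6% of all rows). From P7 to the adult 2 members were called against 40.6% of all rows, and from P0 to the adult 4 members against 56.9%, so the members' shares are read beside a high background. The median log2 difference from P0 to the adult was -0.06 over the 8 members and -0.36 over all rows. Median-of-ratios scaling brought the median of all rows to 0 and the Tnni3 difference to 1.44, and under quantile normalization the latter was 0.55 and no longer called (adjusted p = 0.0691).

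Other filament genes give the surroundings of these changes in the adult against P0 comparison. Of all 14306 rows 56.9% were called there by limma, 1910 higher and 6237 lower, and the list counts stand beside that background. Of 11 thin filament partners 4 rose and 3 fell, led by Lmod2, an actin filament length regulator (2.02 ± 0.13 higher on the log2 scale, adjusted p = 1.68e-07), and Tpm2, a tropomyosin (log2 difference -1.80 ± 0.29, adjusted p = 0.000184). Of 9 thick filament genes 1 rose and 4 fell, among them the atrial and fetal light chains Myl7 (-6.69 ± 0.84, adjusted p = 2.92e-05) and Myl4 (-6.48 ± 0.45, adjusted p = 2.57e-07) and Myh7, the slow and fetal myosin heavy chain (-1.51 ± 0.20, adjusted p = 4.72e-05). The summed atrial markers, which include Myl7 and Myl4, were at 359 to 1262 FPKM at P0 and 332 to 446 in the adult. Of 9 genes that supply calcium to the filament 6 rose and 2 fell, with Hrc, a calcium-binding protein of the sarcoplasmic reticulum, 2.49 ± 0.18 higher (adjusted p = 3.25e-07). Among 7 kinases that act on or near troponin I, none rose and 4 fell, the largest being Prkd1 (-0.95 ± 0.13, adjusted p = 5.39e-05). Of 7 muscle transcription factors 4 fell, with Gata4 at -1.08 ± 0.18 (adjusted p = 0.000316). Summed cardiomyocyte markers spanned 15780 to 17379 FPKM at P0 and 19409 to 19939 in the adult. Erythroid markers were at 729.9 and 855 FPKM in the P0 libraries and at 2159 and 2594 in the adult, and leukocyte markers at 13.8 and 18.2 against 76.6 and 106. Fibroblast markers were at 423 and 560.5 FPKM at P0 and 300.03 and 306 in the adult, and endothelial markers at 142 and 175 against 98.1 and 110, each pair written low to high. The part of these markers in the troponin changes was not tested.

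Resection of the ventricle was compared with sham operation at the same day. At day 1, Tnni1 was at 599 and 459.9 FPKM after sham operation and at 419.7 and 421 after resection, so both resected libraries lay below both sham libraries. The log2 difference was -0.32 ± 0.27 (95% interval -0.91 to 0.27, adjusted p = 0.473). Tnni3 was at 1305 and 1043 after sham operation and 1248 and 1521 after resection, with overlap (0.24 ± 0.20, adjusted p = 0.452). The Tnni1 share was 31.4 and 30.5% after sham operation and 25.1 and 21.7% after resection, without overlap. The log2 ratio of Tnni3 to Tnni1 was 0.56 larger after resection.

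The minor slow and fast isoforms had the lowest p-values at day 1. Tnni2 was at 4.35 and 4.14 FPKM after sham operation and 1.15 and 2.70 after resection, and Tnnt1 was at 35.0 and 34.3 after sham operation and 16.8 and 28.1 after resection. Neither pair of ranges overlapped, and replicate 1 was the lower of the resected libraries in both genes. Their log2 differences were -0.90 ± 0.28 (adjusted p = 0.0624) and -0.65 ± 0.22 (adjusted p = 0.0759). Limma called 0 of 8 members, 2 of them with an unadjusted p under 0.05, against 10.3% of all rows called. Without resection replicate 2, both Tnni2 (-1.29, adjusted p = 0.0101) and Tnnt1 (-0.999, adjusted p = 0.00518) were called. Tnnc1 was at 3578 and 3073 after sham operation and 3825 and 4163 after resection, without overlap and without a call (0.27 ± 0.21, adjusted p = 0.426). Resection replicate 1 was also low in cardiomyocyte markers, which summed to 14379 FPKM there, 22149 in resection replicate 2 and 19442 to 22624 after sham operation. Of the other lists, 3 of 4 leukocyte markers were lower after resection, with sums of 52.1 to 80.9 FPKM after sham operation and 21.2 to 22.6 after resection, led by Lyz2 (-1.71, adjusted p = 0.0025) and Cd68 (-1.30, adjusted p = 0.015). The smooth muscle marker Cnn1 (adjusted p = 0.0296), the endothelial marker Tie1 (adjusted p = 0.0315) and Nkx2-5, a cardiac transcription factor (-1.37, adjusted p = 0.00178), were lower, and Myom2, a thick filament protein of the M-band, was higher (0.81, adjusted p = 0.0296). The part of these markers in the Tnni2 and Tnnt1 values was not tested.

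At day 7, Tnni1 was at 85.8 and 149 FPKM after sham operation and at 182 and 124 after resection, which overlap (0.41 ± 0.27, adjusted p = 0.636). Tnni3 was at 1280.4 and 1581 after sham operation and 1659 and 1164 after resection, again overlapping. The Tnni1 share was 6.27 and 8.59% after sham operation and 9.88 and 9.58% after resection, so the resected libraries lay above the sham libraries here and below them at day 1. The log2 ratio of Tnni3 to Tnni1 differed by -0.44 (resection minus sham), with the smallest p the exact permutation test allows, 0.333. Tnnc2, fast skeletal troponin C, was at 0.723 and 0.857 FPKM after sham operation and 1.96 and 1.72 after resection, without overlap. Tnnc2 reached 1 FPKM in no library outside this resection group, so it passed the filter only through the group where it was high. Its log2 difference from sham was 0.66 ± 0.15 at a limma adjusted p of 0.153, and 0.0373 when no filter on low values was applied. In the same libraries the summed skeletal muscle markers were 16.3 to 17.7 FPKM after sham operation and 24.3 to 31.3 after resection. Mylpf, a fast skeletal myosin light chain, was at up to 14.4 among them. Of the 16 markers found, 9 stayed under 1 FPKM in every library. The sum was also 27.4 to 30.2 FPKM in adult ventricle and 26.3 to 27.0 in 0 h explants, where Tnnc2 was at most 0.0654. Lung epithelium markers summed to 2.47 to 24.9 FPKM after sham operation and 91.7 to 211 after resection. The part of either marker list in the Tnnc2 values was not tested.

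No member was called at day 7 by limma (0 of 8, with 1 at an unadjusted p under 0.05, against 0.154% of all rows called). The difference between the resection effects at day 7 and day 1 was tested for each gene as an interaction. Here too 0 of 8 members were called by limma, with 3 at an unadjusted p under 0.05 (Tnni2, Tnnt1 and Tnnc2), against 5.93% of all rows called. Tnnc2 was again tested only through the day 7 resection libraries. Tnni1 had an interaction of 0.73 ± 0.38 (adjusted p = 0.251). Without day 1 resection replicate 2, Tnni2 (1.59, adjusted p = 0.0147), Tnnt1 (1.09, adjusted p = 0.0147) and Tnnc2 (0.80, adjusted p = 0.04) were called.

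Between day 1 and day 7 after sham operation, slow skeletal troponin I was lower at the later day. Tnni1 fell by 2.21 ± 0.27 on the log2 scale (adjusted p = 0.00024), with no overlap between 599 and 459.9 at day 1 and 85.8 and 149 FPKM at day 7. Tnni3 did not pass the threshold (0.29 ± 0.20, adjusted p = 0.345). Tnnt2 was at 5983 and 5001 FPKM at day 1 and 3309 and 3888 at day 7 and fell by 0.61 ± 0.18 (adjusted p = 0.0343). Tnni2 was at 4.35 and 4.14 FPKM at day 1 and 1.54 and 1.95 at day 7 and fell by 0.94 ± 0.28 (adjusted p = 0.0407). Tnnc2 was listed at 0 in replicate 1 and at 0.212 in replicate 2 at day 1, and at 0.723 and 0.857 FPKM at day 7. Its fitted log2 difference was 0.70 ± 0.15 (limma adjusted p = 0.00896). All of these values lie under 1 FPKM. The Tnnc2 row passed the filter only through the day 7 resection libraries, so this call is not read as a result. The Tnnt2 and Tnni2 calls were each lost when any of the 4 libraries was left out (adjusted p 0.0598 to 0.202 and 0.0913 to 0.178). Both were also lost under median-of-ratios scaling (0.103 and 0.0759), quantile normalization (0.249 and 0.0852) and with no filter (0.194 and 0.0984). Tnnt2 was lost in a single fit over all libraries (0.227) and with the compared groups alone (0.0547). Tnni2 was lost with a pseudocount of 0.1 (0.0796) and with the replicate block (0.0513). The Tnnc2 call was lost without day 7 sham replicate 2 (0.0597) or day 1 sham replicate 1 (0.0687).

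These 4 called members, 1 higher (Tnnc2, with the limit given above) and 3 lower of the 8 tested, stand beside 16.1% of all rows called. Tnni1 kept its call under every scaling and with any library left out. The thin filament length regulators Lmod2 (1.19) and Lmod3 (1.05) were also higher on the log2 scale at day 7 than at day 1 after sham operation. The other thin filament partners are not given for this comparison.

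**Figure D3:**
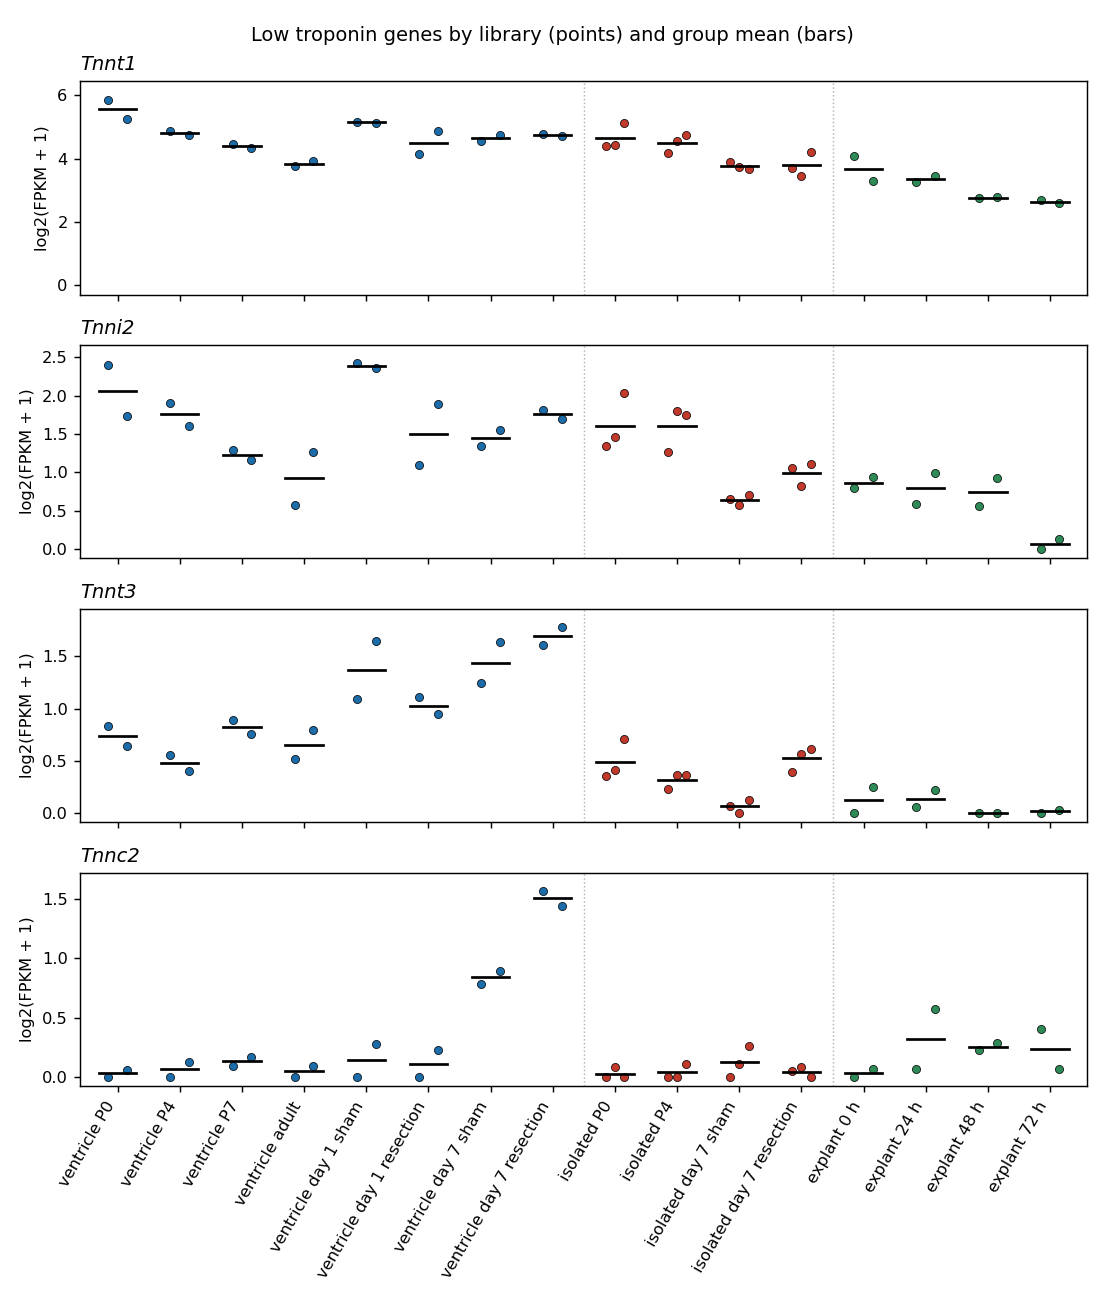
Levels of Tnnt1, Tnni2, Tnnt3 and Tnnc2 as log2(FPKM + 1) on the vertical axis, by group on the horizontal axis; points are libraries, bars group means, and the vertical scale differs between panels. Tnnt1 lies between 5.06 and 57.5 FPKM, Tnni2 and Tnnt3 reach at most 4.35 and 2.43 FPKM, and Tnnc2 passes 1 FPKM in the 2 ventricle day 7 resection libraries alone.

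Isolated cardiomyocytes at P0 had Tnni1 shares of 41.7, 41.3 and 41.2%, beside 41.1 and 41.0% in P0 ventricle. Tnni1 was at 882, 869 and 1036 FPKM and Tnni3 at 1231, 1231 and 1472. At P4, Tnni1 was at 1072, 1019.9 and 579.5 and Tnni3 at 1731, 2060.3 and 1316, with replicate 3 lowest in both genes. The ranges of P0 and P4 overlapped for each gene. The Tnni1 share at P4 was 38.2, 33.1 and 30.5%, below all P0 libraries, and the log2 ratio was 0.47 larger (exact permutation p = 0.1). In the same P4 libraries, in that order, the atrial markers summed to 77.9, 294 and 1187 FPKM and the cardiomyocyte markers to 15947, 18950 and 11649, and their part in the share was not tested. Whole ventricle at P4 stood at 24.6 ± 0.35% (SD, n = 2) and isolated cells at 33.9 ± 3.92% (SD, n = 3); the difference between these preparations was not tested.

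None of the 6 members tested in isolated cells was called between P0 and P4 by limma, and none had an unadjusted p under 0.05. Of all rows 0.00761% were called, so this comparison resolved almost nothing. The intervals were wide: the 95% interval of the log2 difference was -0.76 to 0.54 for Tnni1, -0.30 to 1.02 for Tnni3 and -0.55 to 1.13 for Tnnc1.

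Isolated cells 7 days after sham operation were lower than P4 cells in all 6 tested troponin genes. The P4 cells were not operated on, so age, operation and any difference in library preparation cannot be told apart here. Tnni1 was at 242, 199 and 302 FPKM and fell by 1.81 ± 0.30 on the log2 scale (adjusted p = 0.0139). Tnni3 was at 884, 719.98 and 880.4 and fell by 1.02 ± 0.31 (adjusted p = 0.0299). Tnnt2 was at 2210.4, 2380.3 and 1653 at P4 and at 1137, 931 and 1185 after sham operation, and fell by 0.93 ± 0.29 (adjusted p = 0.0322). Tnnc1 was at 1385.5, 2306 and 952 at P4 and 517, 405 and 886 after sham operation, and fell by 1.34 ± 0.39 (adjusted p = 0.0277). No sham library overlapped a P4 library for any of these 4 genes. Tnni2 (-0.96 ± 0.21, adjusted p = 0.0159) and Tnnt1 (-0.73 ± 0.25, adjusted p = 0.0429) completed the set. Tnni2 was low in both groups, at 1.41, 2.49 and 2.36 FPKM at P4 and 0.567, 0.493 and 0.636 after sham operation. The Tnni1 share went from 33.9 ± 3.92% to 22.9 ± 2.28% (SD, n = 3 each), without overlap.

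The 6 calls of 6 tested stand beside 29.5% of all rows called, and the median log2 difference was -0.99 over the members and -0.29 over all rows. With median-of-ratios or quantile scaling, 2 of the 6 were called, Tnni1 and Tnni2, the latter under 1 FPKM in every sham library. No member was called when sham replicate 1, sham replicate 2, P4 replicate 1 or P4 replicate 2 was left out (adjusted p of Tnni1 0.0627, 0.0831, 0.0562 and 0.0704), and Tnnt1 was lost without sham replicate 3 (0.0702) or P4 replicate 3 (0.112). In the same cells 9 of 9 thick filament genes, 5 of 9 calcium supply genes and 5 of 6 cardiomyocyte markers fell. The cardiomyocyte markers summed to 11649 to 18950 FPKM at P4 and 6423 to 8311 after sham operation, endothelial markers to 11.3 to 175 and 295 to 343, and erythroid markers to 219 to 965 and 2172 to 3004. The part of this makeup in the troponin levels was not tested.

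After resection, isolated cells at day 7 had Tnni1 at 232, 131 and 256 FPKM, Tnni3 at 974, 644 and 1635, Tnnt2 at 1445, 806 and 1759, and Tnnc1 at 895, 568 and 839. Replicate 2 was lowest in all 4 genes, and every one of these ranges overlapped the sham range. The Tnni1 share was 19.3, 16.8 and 13.5% after resection against 21.5, 21.6 and 25.5% after sham operation, without overlap, and the log2 ratio of Tnni3 to Tnni1 was 0.59 larger (exact permutation p = 0.1). The atrial markers Myl7, Myl4, Sln, Nppa and Bmp10 summed to 729.7 to 1315 FPKM after resection and 41.2 to 91.5 after sham operation, beside the lung markers given above; their part in the Tnni1 share was not tested.

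Limma called 0 of 6 members between resection and sham operation in isolated cells, with 0 at an unadjusted p under 0.05, against 1.08% of all rows called. The 95% interval of the log2 difference was -0.95 to 0.35 for Tnni1 and -0.37 to 0.95 for Tnni3. Whether the day 7 resection effect differed between isolated cells and ventricle was tested for each gene in the fit of all libraries. Limma called 0 of 8 members there, with 1 (Tnnc2) at an unadjusted p under 0.05, against 0.0735% of all rows called. The Tnnc2 difference was -0.74 ± 0.20 (adjusted p = 0.156), and it had an adjusted p of 0.0357 when no filter on low values was applied. Tnnc2 passed the filter only through the ventricle day 7 resection libraries, where it was high.

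**Figure D4:**
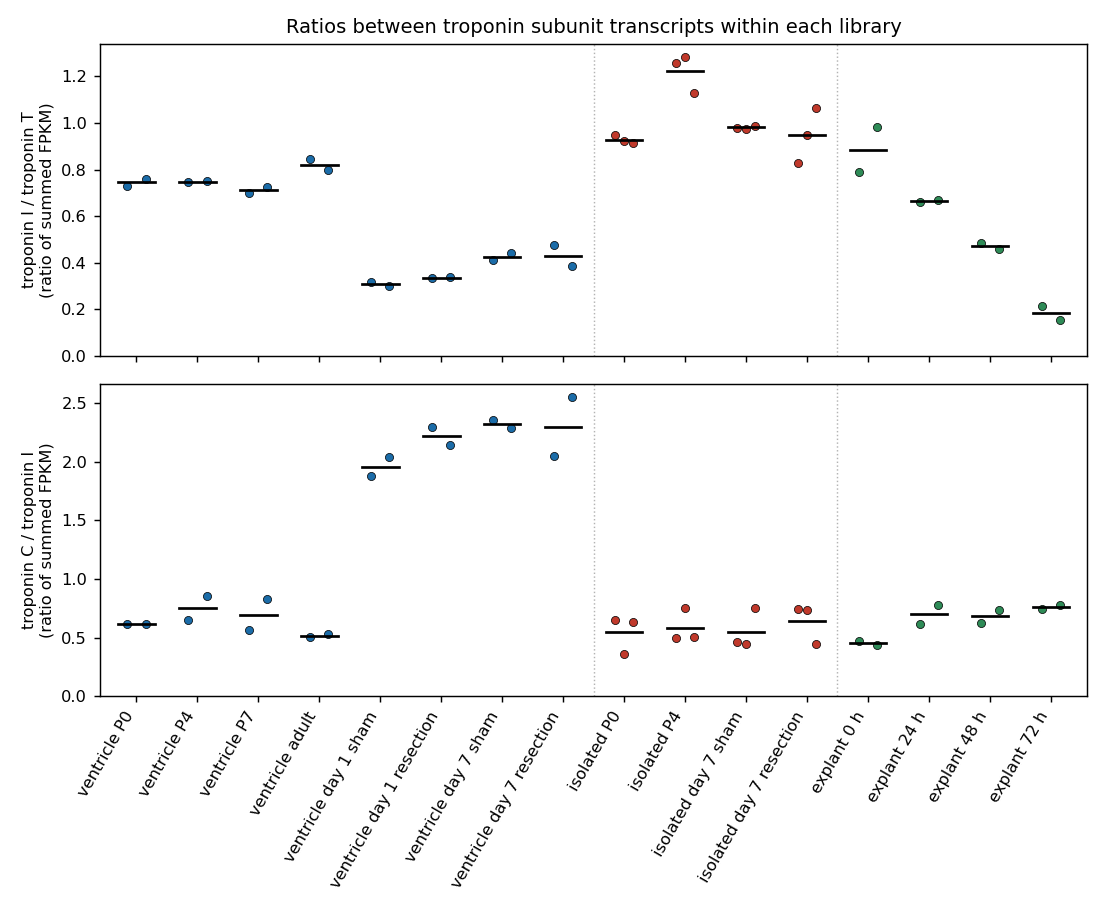
Ratios of summed troponin I to troponin T FPKM (upper panel) and troponin C to troponin I FPKM (lower panel) on the vertical axes, by group on the horizontal axis; points are libraries and bars group means. The 8 operated ventricle libraries lie at 0.299 to 0.476 and 1.87 to 2.55, apart from the 8 unoperated ones at 0.698 to 0.847 and 0.502 to 0.853, and the explant troponin I to T ratio declines from 0.886 at 0 h to 0.186 at 72 h.

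Ratios between subunits within a library differed between sets of samples. Troponin I transcript per troponin T transcript was 0.698 to 0.847 in the unoperated ventricle libraries and 0.299 to 0.476 in the operated ones, with no overlap. Troponin C per troponin I was 0.502 to 0.853 in the unoperated libraries, 1.87 to 2.55 in the operated ones and 0.362 to 0.749 in isolated cells. Sham and resected libraries were alike in belonging to the operated range, and the isolated sham and resection libraries did not share it. Operation and any difference in library preparation cannot be told apart for the ventricle. In isolated cells, troponin I per troponin T was 0.915 to 0.948 at P0, 1.13 to 1.28 at P4, 0.974 to 0.989 after sham operation and 0.828 to 1.06 after resection.

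Adult cardiomyocytes at 0 h after dissociation were set beside adult ventricle. Tnni3 was at 3750 and 3790 FPKM at 0 h, above both ventricle libraries, and the log2 difference was 0.16 ± 0.29 (95% interval -0.43 to 0.76, adjusted p = 0.708). Tnnt2 was at 4744 and 3845 (0.06 ± 0.28, 95% interval -0.51 to 0.63) and Tnnc1 at 1768 and 1649 (-0.03 ± 0.37, 95% interval -0.79 to 0.74), and both overlapped the ventricle range. Tnni1 was listed at 0 in replicate 1 and at 0.0432 in replicate 2, below the 1.04 and 1.201 FPKM of adult ventricle. The fitted log2 difference was -1.05 ± 0.31 (adjusted p = 0.0106; 0.0683 without adult replicate 2). Tnnt3 was listed at 0 and at 0.191 FPKM against 0.431 and 0.733 in adult ventricle (-0.53 ± 0.17, adjusted p = 0.0217); this call was lost without adult replicate 2 (0.199) or 0 h replicate 1 (0.149).

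The 2 called of 8 tested stand beside 33.5% of all rows called between 0 h explants and adult ventricle. Tnnt3 was under 1 FPKM in each of these libraries and passed the filter only through operated ventricle libraries. The median log2 difference was -0.04 over the members and -0.37 over all rows. Fibroblast markers summed to 8.41 to 14.9 FPKM at 0 h and 300.03 to 306 in adult ventricle, endothelial markers to 16.4 to 31.0 and 98.1 to 110, and erythroid markers to 4.14 to 4.23 and 2159 to 2594; their part in the Tnni1 and Tnnt3 differences was not tested.

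Over 72 h after explant, all 4 tested members fell, and cardiac troponin I had the largest fitted fall. Tnni3 was at 2527 and 2728 FPKM at 24 h, 1324 and 1589 at 48 h, and 319 and 286 at 72 h, with no overlap between any 2 times. Its log2 difference from 0 h was -0.52 ± 0.20 at 24 h (adjusted p = 0.109). With the replicate number as a block, which pairs same-numbered explant libraries, the 24 h value had an adjusted p of 0.0308. It was -1.38 ± 0.20 at 48 h (adjusted p = 0.00304) and -3.64 ± 0.20 at 72 h (adjusted p = 0.000138). Tnni1, the fetal isoform, stayed near 0 meanwhile: it was listed at 0 in 5 of the 8 explant libraries and its highest value was 0.0731 FPKM, at 72 h.

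Cardiac troponin C was called at 48 and 72 h. Tnnc1 was at 1554 and 2132 FPKM at 24 h, which spanned the 0 h values, at 823 and 1172 at 48 h and at 235 and 223 at 72 h. Its log2 difference from 0 h was 0.09 ± 0.25 at 24 h (adjusted p = 0.827), -0.80 ± 0.25 at 48 h (adjusted p = 0.0392) and -2.89 ± 0.25 at 72 h (adjusted p = 0.000433). Under quantile normalization the 48 h difference was -0.23 (adjusted p = 0.532). The 48 h call of Tnnc1 was also lost with no filter (0.152), in a single fit over all libraries (0.0784) and with the compared groups alone (0.0671), as well as without 48 h replicate 1 (0.216), 0 h replicate 1 (0.118) or 0 h replicate 2 (0.0934). Cardiac troponin T, Tnnt2, was at 3818 and 4066 FPKM at 24 h, 2723 and 3456 at 48 h and 1470.1 and 1827 at 72 h. Only the 72 h difference of Tnnt2 passed (-1.38 ± 0.24, adjusted p = 0.00293), and it moved to -0.56 (adjusted p = 0.0862) under quantile normalization. Slow skeletal troponin T, Tnnt1, was at 15.8 and 8.74 FPKM at 0 h, 8.65 and 9.96 at 24 h, 5.70 and 5.95 at 48 h, and 5.44 and 5.06 at 72 h. Its log2 difference from 0 h was -0.91 ± 0.28 at 48 h (adjusted p = 0.0365) and -1.03 ± 0.28 at 72 h (adjusted p = 0.0174). Without 0 h replicate 1, the higher of the pair, these became -0.51 (0.162) and -0.64 (0.0804). The 48 h call was also lost without 48 h replicate 1 (0.146) or 2 (0.103), and the 72 h call without 72 h replicate 1 (0.0516) or 2 (0.0614).

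**Figure D5:**
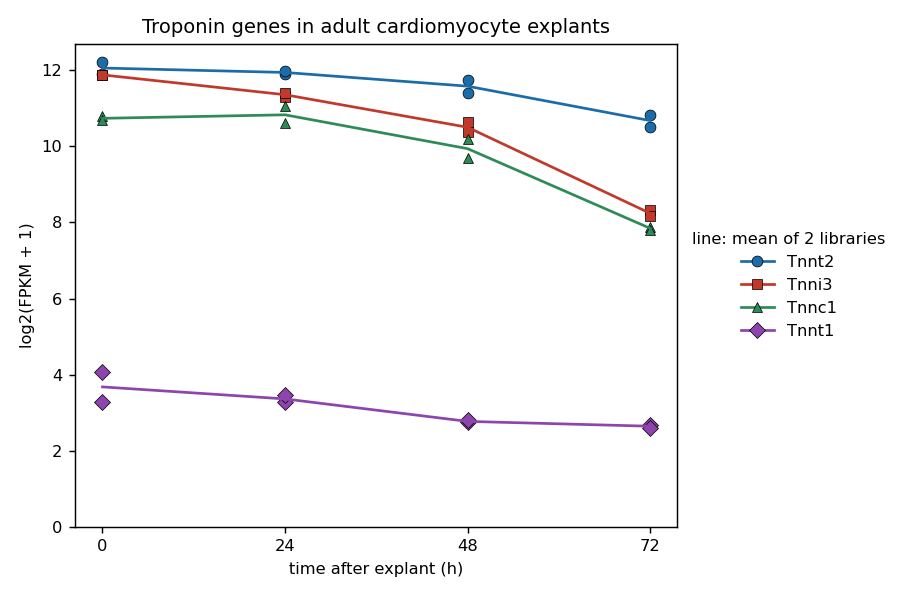
Levels of Tnnt2, Tnni3, Tnnc1 and Tnnt1 as log2(FPKM + 1) on the vertical axis against hours after explant on the horizontal axis; points are libraries and lines join the means of 2 libraries. Tnni3 drops from 3750 and 3790 FPKM to 319 and 286, Tnnc1 from 1768 and 1649 to 235 and 223, and Tnnt2 from 4744 and 3845 to 1470.1 and 1827.

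Of the 4 members tested in explants, limma called 0 at 24 h, with 1 (Tnni3) at an unadjusted p under 0.05, 1 under median-of-ratios scaling (Tnni3, -1.05, adjusted p = 0.0351) and 1 with the replicate block. At 48 h 3 were called and at 72 h 4, all lower. Of all rows 17.9%, 42.2% and 55.8% were called at these times, most of them higher: the median of all rows was 0.37, 0.59 and 0.76, against -0.22, -0.85 and -2.14 over the 4 members. The scalings pulled apart: at 72 h the Tnnt2 difference was -2.30 under median-of-ratios scaling and -0.56 under quantile normalization, and at 24 h the Tnni3 difference was -1.05 and 0.05. At 48 h the Tnni3 difference was -0.70 (adjusted p = 0.05) under quantile normalization.

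The proportions of the subunits at the RNA level differed between times. Troponin I per troponin T went from 0.788 and 0.984 at 0 h to 0.661 and 0.669 at 24 h, 0.485 and 0.459 at 48 h and 0.216 and 0.156 at 72 h, with no overlap between times. Troponin C per troponin T was 0.371 and 0.428 at 0 h and 0.160 and 0.122 at 72 h. Troponin C per troponin I was 0.453 ± 0.026 at 0 h and 0.760 ± 0.028 at 72 h (SD, n = 2 each). All troponin together was 1.82 ± 0.31% of summed FPKM at 0 h and 0.447 ± 0.055% at 72 h. Of 6 cardiomyocyte markers 5 were lower at 72 h. Their sum was 16601 to 20766 FPKM at 0 h, where it includes the 0 of Myh6, and 2328 to 2599 at 72 h. Leukocyte markers summed to 1.01 to 2.24 FPKM at 0 h and 82.7 to 136 at 72 h, and all 3 tested rose. Their part in the troponin levels was not tested.

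Other genes of the filament and its calcium supply were counted at 72 h. Of all 12246 rows 55.8% were called by limma at that time, 5726 higher and 1111 lower. Of 11 thin filament partners 5 were lower and none higher, led by Actc1, cardiac actin (-5.57 ± 0.23, adjusted p = 4.75e-05), and Tmod4, a thin filament end-capping protein (-1.94 ± 0.24, adjusted p = 0.0011). Of 9 thick filament genes 6 were lower, with Myh7 at -4.25 ± 0.43 (adjusted p = 0.000625) and the regulatory light chain Myl2 at -3.74 ± 0.22 (adjusted p = 0.00018). Myh6 had no call (adjusted p = 0.722), with the 0 h pair split between 4762 and 0. Of 9 calcium supply genes 8 were lower, with Casq2 and Hrc, which store calcium in the sarcoplasmic reticulum, at -3.77 ± 0.57 and -3.67 ± 0.24. Among the 7 kinases 2 were higher and 2 lower, the lower including Tnni3k, a kinase named for its binding to cardiac troponin I, at -3.40 ± 0.22 (adjusted p = 0.000208) and the higher including Prkcd at 1.37 ± 0.20 (adjusted p = 0.00192).

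The end of the explant series was set against P0 isolated cells, the youngest isolated cells of the series. Age, preparation and time after explant differ together here and cannot be told apart. Cardiomyocyte markers summed to 2328 to 2599 FPKM in the 72 h explants and 13277 to 15641 in the P0 cells. Leukocyte markers summed to 82.7 to 136 and 1.55 to 2.30, and erythroid markers to 0.443 to 1.18 and 563 to 12043. The part of these markers in the troponin differences was not tested. Tnni1 differed most, at 882, 869 and 1036 FPKM in P0 cells and at 0 and 0.0731 in 72 h explants. Cardiac troponin I and C and slow skeletal troponin T were lower in the explants too, with log2 differences of -2.11 ± 0.26 for Tnni3 (adjusted p = 2.27e-07), -2.37 ± 0.34 for Tnnc1 (adjusted p = 1.75e-06) and -2.02 ± 0.25 for Tnnt1 (adjusted p = 2.6e-07). Tnnt2 had a log2 difference of -0.54 ± 0.25, which did not pass (adjusted p = 0.0692); under median-of-ratios scaling it was -1.18 and called (adjusted p = 0.000971), as it was with no variance trend (0.0461) and with the compared groups alone (0.0385).

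The 6 called of 8 tested, all lower at 72 h, stand beside 58.1% of all rows called and a median of all rows of 0.36. Tnnt3, which is among them, was under 1 FPKM in each of these libraries. The Tnnt3 call was lost without 72 h replicate 1 (0.0632) or P0 replicate 3 (0.0681). Isolated P0 cells were also compared with P0 ventricle. Tnnt1 was at 20.4, 20.6 and 34.3 FPKM in the cells and 57.5 and 37.1 in ventricle (-0.90 ± 0.25, adjusted p = 0.00561), and Tnnt2 at 2209, 2259 and 2708 against 4206 and 3553 (-0.70 ± 0.25, adjusted p = 0.0225). Neither gene overlapped between the preparations, and replicate 3 was highest in both genes among the cells. Erythroid markers summed to 563 FPKM in that replicate, to 11770 and 12043 in the others and to 729.9 to 855 in ventricle. Cardiomyocyte markers were at 13277 to 15641 FPKM in the cells and 15780 to 17379 in ventricle. Fibroblast markers were at 114 to 177 FPKM in the cells and 423 to 560.5 in ventricle. Endothelial markers were at 6.62 to 62.0 and 142 to 175. The part of these markers was not tested. These 2 calls of 8 tested stand beside 54.5% of all rows called, at a median of all rows of -0.57. Under median-of-ratios scaling that median was 0.01, and Tnnt1 (-0.15, adjusted p = 0.781) and Tnnt2 (0.08, adjusted p = 0.913) were not called, the latter with its sign turned. Without ventricle P0 replicate 1 neither was called (Tnnt1 0.142, Tnnt2 0.16), and Tnnt2 was also lost without isolated P0 replicate 1 (0.067) or 2 (0.0623). Atrial markers summed to 1262 FPKM in ventricle P0 replicate 1, 359 in replicate 2 and 477 to 577 in the cells. Their part in these calls was not tested.

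The genes whose levels most resembled those of a member were ranked by Pearson's r of log2(FPKM + 1) over the 16 group means, among 9065 rows; the points share preparations and library methods, and r is a description. For Tnni1 the nearest were Tead2 (r = 0.98), Ect2 (0.98), Ube2c (0.98), Rrm2 (0.98) and Plagl1 (0.97); Ect2, Ube2c and Rrm2 are cell division genes and Plagl1 is imprinted. For Tnni3 they were Msra (0.96), Echdc3 (0.93), Asb11 (0.91), Pgam2 (0.91), the muscle phosphoglycerate mutase, and Csl (0.90). Tnnc1 was nearest to Casq2 (0.98), Pts (0.97), Mdh1 (0.96), Acat1 (0.96) and Nebl (0.96). Tnnt2 was nearest to Mrps9 (0.97) and Fsd2 (0.97), and Tnnt1 to Smpd2 (0.96) and Lrrc1 (0.96). Between members, r was 0.94 for Tnnt1 with Tnni2, 0.84 for Tnnt1 with Tnni1, 0.80 for Tnnt2 with Tnnc1 and -0.12 for Tnni1 with Tnni3.

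In the order of all 16 group means, neighbours often overlapped. Of the 15 neighbouring pairs of groups, 6 were separate in range for Tnni1 and 6 for Tnni3, 5 for Tnnt1, 3 for Tnni2 and Tnnt3, and 2 for Tnnt2, Tnnc1 and Tnnc2. The order for Tnni1 began with ventricle P0 (1199 ± 117 FPKM, SD, n = 2), isolated P0 (929) and isolated P4 (890.3), of which the last pair overlapped, and ended with the 4 explant groups. For Tnni3 it began with the 0 h explants (3770 ± 28.2) and adult ventricle (3374) and ended with the 72 h explants (302 ± 22.8).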

How the data were processed

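RNA from 36 mouse heart libraries was sequenced, and the deposited values were made by the authors with the aligners TopHat 1.3.2 and Bowtie 0.12.7, genome build mm9, and the quantifiers Cuffdiff and Cufflinks 1.2.1, per the submitters' processing notes; the annotation is not given in the sources used here. The authors deposited 1 table of FPKM per gene row and library, with all 36 value columns used. FPKM keeps no depth, so no count test was possible and the precision is set by 2 or 3 libraries per group. The members and lists were chosen with earlier results of these data known.

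Each value was taken as log2(FPKM + 1), and a row was tested if it reached 1 FPKM in at least 2 libraries of its fit. Tnnt3 and Tnnc2 reached 1 FPKM in operated ventricle libraries alone. They count as tested in the ventricle and all-library fits through those libraries. Fits used limma 3.58.1 in R 4.3.3 with a variance trend over 16 ventricle, 12 isolated or 8 explant libraries, or over all 36 for comparisons between preparations. Calls had a Benjamini-Hochberg adjusted p below 0.05 over all rows tested, and fold changes are on the log2(FPKM + 1) scale, which understates changes of low genes. Isoform ratios were tested with exact two-sided permutation tests, and the fits were tested on simulated data. From each gene list the text gives the counts and at most the 2 called genes with the largest change, with Myh6 and Myh7 always allowed. Nkx2-5, Lmod2 and Lmod3 come under the same rule, but list counts are not given where they appear for operated ventricle. For likeness the 5 highest r were taken per member, among rows with a group mean of at least 5 FPKM.

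Replicate numbers are shared between groups. Same-numbered libraries deviated together in all 6 pairs of explant groups (r of deviations 0.385 to 0.617), so the explant result that a replicate block changes is given with the block beside the unblocked value. In ventricle 2 of 28 pairs of groups, and in isolated cells 6 of 18 pairs of libraries, were above 0.1, and the numbers were not taken to pair them. The printed fits have no block. Alternatives were a pseudocount of 0.1, no filter on low values, median-of-ratios and quantile scaling, no variance trend, a replicate block, a single fit over all libraries, the compared groups alone, and each library left out. A planned sum over the rows of a symbol could change nothing, since each member has 1 row, and is not counted. Python 3.11.15, NumPy 2.4.6, pandas 2.3.3, SciPy 1.17.1 and Matplotlib 3.10.9 were used. Col1a2, Casq1, Cacna1c, Actn2, Mybpc3, Tead1, Ttn, Acta1 and Pecam1 were listed but are not analysed here.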

Additional observations from a re-analysis of the deposited data

Results flagged for a closer look

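The resection effect on the log2 ratio of Tnni3 to Tnni1 had opposite signs in the sample sets, and its differences were tested after these directions had been seen. In isolated cells at day 7 the ratio was larger after resection by 0.59, and in ventricle at day 7 the effect was -0.44. The difference of 1.0304 between these effects had a p of 0.0167 in an exact permutation test of labels within each contrast (120 arrangements, two-sided, the smallest p they can give), or 0.0334 adjusted over 2 such tests. At day 1 the ventricle effect was 0.56, and its difference from day 7 of 0.99954 had p = 0.0556, again the smallest possible (exact permutation test, 36 arrangements, adjusted p = 0.0556). In each contrast the ranges were already separate, so both tests had to give their smallest p once these opposite signs had been picked. The adjustment over 2 does not allow for picking them from 11 ratio comparisons, and neither test is read as a pass. Lung epithelium markers were higher in each day 7 resection library than in the day 7 sham libraries of the same preparation, at 171 to 1116 against 0.435 to 2.57 FPKM in isolated cells and 91.7 to 211 against 2.47 to 24.9 in ventricle. Atrial markers were at 729.7 to 1315 against 41.2 to 91.5 FPKM in isolated cells and 394 to 479.7 against 194 to 218 in ventricle. Their part in these differences was not tested. Groups of 2 or 3 libraries are too small for a check of single libraries that stand apart.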

How the results depend on the processing

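Of 1683 values of single genes recomputed under the alternatives, 1439 kept their direction and side of the threshold. Another 112, called in neither fit, changed sign. With the sign kept, 105 were no longer called and 25 became called. The last 2 changed both sign and side of the threshold. Tnnt2 in adult against P0 ventricle, not called in the printed fit (0.08), was called at -0.76 under quantile normalization. Tnnt2 in isolated against ventricle P0, called in the printed fit (-0.70), was not called at 0.0765 under median-of-ratios scaling. None of the 61 recomputed log ratios of Tnni3 to Tnni1 changed sign. The counts of called members that moved by over 1.5 times are given next. Without a filter on low values they were 1 for adult against P7, for the day 7 resection effect, for its difference from day 1 and from isolated cells, for 48 h explants and for isolated against ventricle P0, and 2 for sham day 7 against day 1 and isolated sham against P4. Under median-of-ratios scaling they were 2 for sham day 7 against day 1, 2 for isolated sham against P4, 1 for 24 h explants and 0 for isolated against ventricle P0; calls of Tnnt2 gained in 4 other comparisons (adult against P7 and P0, 48 h explants, 72 h explants against isolated P0) moved no count by that much. Under quantile normalization they were 1 for P4 against P0, adult against P7, 48 h explants, 0 h explants against adult ventricle and isolated against ventricle P0, and 2 for sham day 7 against day 1 and isolated sham against P4, while P7 against P0 gained Tnnt2 (-1.03, adjusted p = 0.0202) and 72 h explants lost it. With the compared groups alone they were 1 for P4 against P0, 48 h explants and 0 h explants against adult ventricle and 2 for sham day 7 against day 1, and a single fit over all libraries gave 1 for adult against P7. The replicate block gave 1 for 24 h explants and 1 for isolated against ventricle P0; it changed 1 other call, Tnni2 in sham day 7 against day 1 (adjusted p = 0.0513). With each library left out in turn the counts ranged from 0 to 1 for P4 against P0 and for P7 against P4, 1 to 3 for P7 against P0, 1 to 1 for adult against P7, 0 to 2 for the day 1 resection effect, 1 to 2 for sham day 7 against day 1, 0 to 3 for the difference of resection effects, 0 to 5 for isolated sham against P4, 1 to 2 for 48 h explants, 0 to 2 for 0 h explants against adult ventricle and 0 to 3 for isolated against ventricle P0. Over all rows, the 8148 calls of isolated against ventricle P0 became 1011 under median-of-ratios scaling. Where a setting tests other rows or fewer libraries its construction differs, and otherwise the cause was not tested. Groups of 2 or 3 libraries limit every interval, and sequencing depth is unknown.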
